A study of Mus musculus with 16 samples.

Results

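The neutrophil granule genes described here are S100a8, S100a9, Ngp, Camp, Ltf, Elane, Mpo, Ctsg, Prtn3 and Lcn2. Every probe set that the platform annotation gives one of these symbols was taken, whatever its value. All 10 genes were represented, by 12 of the 12422 probe sets tested, because Mpo and Lcn2 each had a pair. The annotation named 8251 genes in all.

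RNA came from whole inner ears of newborn mice of strain 129SvEv, and the comparison was made to find genes that depend on COUP-TFI, the orphan nuclear receptor encoded by Nr2f1. The groups were wild-type and COUP-TFI-/-, both at postnatal day 0 and neither given any treatment named in the labels. Each RNA sample was a pool from multiple inner ears, and 8 Affymetrix MG-U74Av2 chips were hybridized, 4 per genotype. They form hybridization sets A and B, made at different times, and each set held 1 pool per genotype on duplicate chips, so there were 2 pools per genotype. A whole inner ear also carries blood, bone and connective tissue, and the mice lacked the receptor in every cell, so a difference could arise in any of them.

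Neutrophils store antimicrobial proteins in granules that fill in sequence as the cell matures in the marrow. Azurophil granules form first and hold myeloperoxidase (Mpo) and the serine proteases neutrophil elastase (Elane), proteinase 3 (Prtn3) and cathepsin G (Ctsg). Specific granules form later and hold lactoferrin (Ltf), lipocalin 2 (Lcn2), the cathelicidin precursor (Camp) and neutrophilic granule protein (Ngp), while S100a8 and S100a9 pair as calprotectin in the cytosol.

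In the RefSeq annotation, S100a8 and S100a9 are neighbours on chromosome 3, with 0 coding genes between them, and so are Elane and Prtn3 on chromosome 10. Ngp, Camp and Ltf all lie on chromosome 9, further apart. The 250 bases before the RefSeq start of all 10 genes were searched on both strands for 3 motifs. The letters AGGAAGT hold the GGAA core that ETS-family factors such as PU.1, a driver of myeloid development, recognise. They were chosen after these promoters had been read, so their count is only a description. They occurred before 5 of the 10 genes, against 7.69% of 32851 promoter windows. All 4 azurophil granule genes were among the 5, and none of the 4 specific granule genes was. The 60 bases around each match are shown for that reason, 5′ to 3′ on the strand of the gene, with the match in capitals. The build is GRCm38.p6 and the sequences are from RefSeq. The Elane window is chr10:79886202-79886261 on the plus strand, that of Prtn3 is chr10:79879547-79879606 on the plus strand, and that of Mpo is chr11:87793535-87793594 on the plus strand. The Ctsg window is chr14:56102747-56102806 on the minus strand. The S100a8 window is chr3:90668873-90668932 on the plus strand, and there the motif stands on the other strand and reads as its reverse complement. All 5 windows end upstream of the start.
Elane: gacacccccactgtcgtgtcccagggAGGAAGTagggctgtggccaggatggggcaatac
Prtn3: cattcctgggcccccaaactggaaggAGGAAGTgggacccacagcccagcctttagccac
Mpo: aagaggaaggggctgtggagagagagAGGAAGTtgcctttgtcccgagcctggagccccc
Ctsg: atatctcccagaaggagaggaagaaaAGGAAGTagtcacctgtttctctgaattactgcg
S100a8: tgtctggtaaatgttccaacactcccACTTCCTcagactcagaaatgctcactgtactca

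The match began 84 bases before the start in Elane and 94 in Prtn3, and 223 in Mpo, 206 in Ctsg and 172 in S100a8. The TATA-like letters TATAA occurred before 4 of the 10 genes, against 22.8% of all windows. In S100a8, Elane and Prtn3 they began 30, 31 and 32 bases before the start, whereas the match in Ctsg lay on the other strand, 236 bases before it. The short site AGGTCA, which COUP-TFI and many other nuclear receptors recognise, occurred before 1 of the 10 genes, Ltf, 46 bases before its start, and in 14% of all windows. A match is not evidence of binding, and these motifs do not overlap each other here.

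Values are GCRMA log2 values unless dChip is named, and chips are given in the order A1, A2, B1, B2. Nr2f1 itself, the deleted gene, read 8.83, 8.72, 7.90 and 7.74 in wild-type and 5.27, 5.08, 4.68 and 4.69 in COUP-TFI-/-, a difference of -3.37 (SE 0.11, limma adjusted p = 5.9e-11). Duplicate chips had a median SD of 0.09 over all probe sets and of 0.08 over the 12 of the granule genes. The median absolute difference was 0.16 between the sets and 0.06 between the genotypes over all probe sets, and 0.21 and 0.08 over the granule genes. All genotype differences are COUP-TFI-/- minus wild-type and all set differences are A minus B, with the SE and the 95% interval of limma on the means of duplicate chips, n = 2 pools per genotype. Set, time of hybridization and pool of animals cannot be told apart.

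In wild-type inner ear the granule genes sat mostly in the lower part of the chip. Of their 12 probe sets, 10 had a mean below the chip median, 4 of them below the 25th percentile, and the number above the median was 2, those of Camp and Elane, whichever wild-type chip was left out. By GCRMA, Camp stood at percentile 60.7 and Elane at 55.8. Below the median came Ltf at 49.3, Lcn2 161684_r_at at 44.9, S100a8 at 41.2, Ngp at 38.8, Prtn3 at 35.3 and S100a9 at 31.9. At the bottom, Ctsg stood at percentile 4.99, the 160564_at probe set of Lcn2 at 13 and the Mpo pair, 100414_s_at and 100415_at, at 19.5 and 22.1. A percentile places a probe set among the others on the chip and does not measure one transcript against another, since probe sets differ in brightness. The pair for Lcn2 shows this, because its probe sets stood far apart.

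With dChip, 3 of the 12 were above the median, namely Camp at percentile 78.5, Prtn3 at 67.8 and S100a8 at 53.3. Elane dropped to 41.2, and Ngp went from 38.8 with GCRMA to 16.3. Camp was therefore above the median and Ctsg, Mpo and Lcn2 160564_at were below the 25th percentile by both methods, whereas the middle of the order was not the same. Between the wild-type pools the GCRMA percentile differed most for Elane, at 50.2 in pool A and 61.2 in pool B, and for Prtn3, at 31.1 and 40.2.

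**Figure D1:**
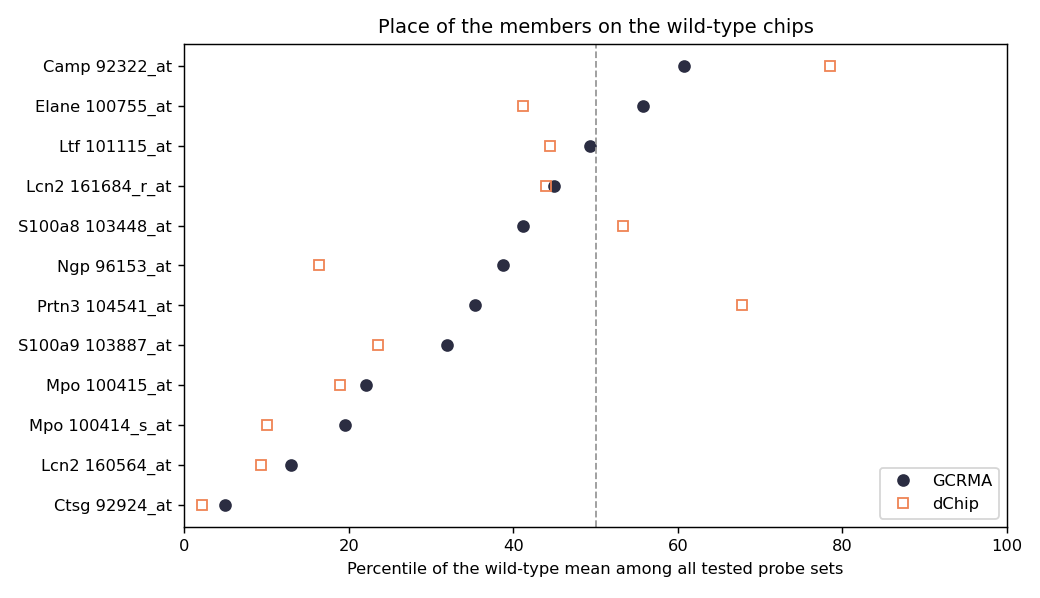
Percentile of each granule probe set's wild-type mean among all tested probe sets (x axis, 0 to 100) by GCRMA (filled circles) and dChip (open squares), with the chip median as a dashed line. By GCRMA 10 of the 12 probe sets lie left of the line, and Prtn3 and Ngp are among those that shift most between the methods.

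Among the azurophil granule genes, Elane and Prtn3 were higher in set B in both genotypes. Elane, which digests bacterial and matrix proteins, read 7.34, 7.14, 7.67 and 7.77 in wild-type and 7.37, 7.30, 7.78 and 7.68 in COUP-TFI-/-. The 4 chips of set B were all above the 4 of set A, and within a set the genotypes overlapped. The set difference was -0.43 (SE 0.10, interval -0.64 to -0.23, limma adjusted p = 0.00371), or 1.35-fold higher in B. The genotype difference was 0.06 (interval -0.15 to 0.26, limma adjusted p = 1.00).

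Prtn3, a protease of similar action whose gene adjoins Elane, read 6.30, 6.19, 6.56 and 6.94 in wild-type and 6.38, 6.39, 6.85 and 6.67 in COUP-TFI-/-. Again all chips of set B lay above all chips of set A. The set difference of -0.44 (SE 0.10, limma adjusted p = 0.00369) was close in size to that of Elane, and the genotype difference was 0.07 (interval -0.13 to 0.28). The dChip values of Prtn3 ran the other way. They were 549, 584, 474 and 466 intensity units in wild-type and 546, 529, 528 and 452 in COUP-TFI-/-, so that every chip of set A was above every chip of set B. Its dChip set difference on the log2 scale was 0.20 (limma adjusted p = 0.237), so the direction for Prtn3 depended on the summary method. For Elane dChip kept the direction, at -0.30, without passing the test (limma adjusted p = 0.107).

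Mpo, the enzyme that makes hypochlorous acid, passed neither test with either probe set. With 100415_at it read 5.77, 5.63, 5.66 and 5.66 in wild-type and 5.91, 5.58, 5.83 and 5.49 in COUP-TFI-/-. Its SD between duplicates, 0.18, was the largest of the 12, and the genotype difference was 0.02 (interval -0.18 to 0.22). With 100414_s_at the genotype difference was 0.04 (interval -0.16 to 0.25), from -0.04 within A and 0.13 within B. The 2 probe sets gave set differences of opposite sign, 0.06 and -0.06, neither of which passed the test. With dChip they were 0.18 and -0.40, again without passing (limma adjusted p = 0.311 and 0.139), and the genotype difference of 100414_s_at was -0.14 within A and 0.40 within B.

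Ctsg, the protease with the lowest place on the chip, read 3.99, 3.95, 4.06 and 3.94 in wild-type and 4.01, 4.12, 4.11 and 4.25 in COUP-TFI-/-. The groups overlapped, though only in part, and the difference had the same sign in both sets, 0.10 within A and 0.18 within B. The genotype difference of 0.14 did not pass the test (SE 0.10, interval -0.06 to 0.35). With dChip its wild-type intensities lay between 18.9 and 25.4, at percentile 2.10 of the chip, and its genotype difference was 0.28, also short of the test.

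The specific granule genes did not move as a group. Ltf, the iron-binding lactoferrin, read 7.24, 7.19, 7.09 and 7.21 in wild-type and 7.11, 7.17, 7.67 and 7.59 in COUP-TFI-/-. Both chips of COUP-TFI-/- pool B stood above the other 6, which lay between 7.09 and 7.24. Within set A the genotypes differed by -0.07 and within set B by 0.48 (1.39-fold), and over both by 0.20 (SE 0.12, interval -0.05 to 0.46). The interaction of genotype and set, tested over the 8 chips and so against the spread of duplicates only, was just short of the threshold (limma adjusted p = 0.0526). With dChip the pattern was similar, at -0.17 within A and 0.36 within B.

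Lcn2, which binds bacterial siderophores and is also made by inflamed epithelium, gave a different picture with each of its probe sets. With 160564_at it read 4.86, 4.81, 4.95 and 5.09 in wild-type and 4.99, 4.82, 5.61 and 5.62 in COUP-TFI-/-, so that COUP-TFI-/- pool B again stood above all other pools. The genotype difference was the largest of the 12 at 0.33 (SE 0.12, interval 0.08 to 0.58), with an unadjusted p of 0.0126 and a limma adjusted p of 0.777. Within set A it was 0.07 and within set B 0.59 (1.51-fold). The interaction did not pass (limma adjusted p = 0.0768). With the 8 chips fitted as separate samples the genotype difference did pass (limma adjusted p = 0.0254), in a test that takes duplicates of 1 pool as replicates. Over the 16 settings tried, its adjusted p ran from 0.0254 to 1.00. Its dChip differences were 0.19 within A and 0.63 within B.

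With 161684_r_at, Lcn2 read 7.22, 7.19, 6.75 and 6.83 in wild-type and 7.32, 7.16, 6.72 and 6.68 in COUP-TFI-/-. No rise appeared in COUP-TFI-/- pool B, and the genotype difference was -0.03 (interval -0.23 to 0.18). All chips of set A were above all chips of set B, by 0.48 (SE 0.10, limma adjusted p = 0.00202). The set difference of 160564_at had the opposite sign, -0.45 (SE 0.12, limma adjusted p = 0.0108). The probe sets of Lcn2 thus disagreed on both comparisons with GCRMA, and with dChip as well, where the set differences were 0.30 and -0.49. No direction is given here for Lcn2 as a gene.

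Ngp, a cystatin-like protein of specific granules, read 6.91, 6.88, 6.49 and 6.50 in wild-type and 6.85, 6.93, 6.70 and 6.62 in COUP-TFI-/-. Its set A chips were all above its set B chips, by 0.32 (SE 0.10, interval 0.11 to 0.52, limma adjusted p = 0.0268), which is the direction opposite to Elane. The call did not hold when COUP-TFI-/- chip A1, COUP-TFI-/- chip B2 or wild-type chip B1 was left out (limma adjusted p = 0.0505, 0.0536 and 0.0641, within a range of 0.000768 to 0.137 over 14 settings). Between the genotypes Ngp differed by -0.01 within A and 0.17 within B.

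Camp, the source of the antimicrobial peptide CRAMP, varied least among the 4. It read 7.72, 7.59, 7.75 and 7.75 in wild-type and 7.73, 7.66, 7.68 and 7.64 in COUP-TFI-/-. The genotype difference was -0.02 (interval -0.23 to 0.18) and the set difference -0.03 (interval -0.23 to 0.18), so differences of more than about 0.23 in size lie outside both intervals.

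S100a8 and S100a9 together bind calcium and zinc as calprotectin, and neither passed the test between the genotypes or between the sets. S100a8 read 7.00, 6.97, 6.64 and 6.65 in wild-type and 7.23, 6.91, 6.91 and 7.08 in COUP-TFI-/-. Wild-type pool B was the lowest and the other 3 pools overlapped. The genotype difference was 0.22 (SE 0.10, interval 0.00 to 0.43), from 0.09 within A and 0.35 within B. Its unadjusted p was 0.0474 and its limma adjusted p was 1.00. With dChip the difference was 0.10, from -0.02 within A and 0.23 within B.

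S100a9 read 6.30, 6.33, 6.33 and 6.27 in wild-type and 6.52, 6.36, 6.50 and 6.53 in COUP-TFI-/-. It was the only granule gene whose COUP-TFI-/- chips were all above its wild-type chips, which was also true of the chips of the genotypes, in either direction, for 2.26% of all probe sets. The genotypes differed by 0.13 within A and 0.21 within B, and by 0.17 over both (SE 0.10, interval -0.03 to 0.38, unadjusted p = 0.0909, limma adjusted p = 1.00). In set A the lower COUP-TFI-/- chip was above the higher wild-type chip by less than the SD of duplicates. With dChip the chips of the genotypes overlapped, and the differences were -0.02 within A and 0.15 within B.

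**Figure D2:**
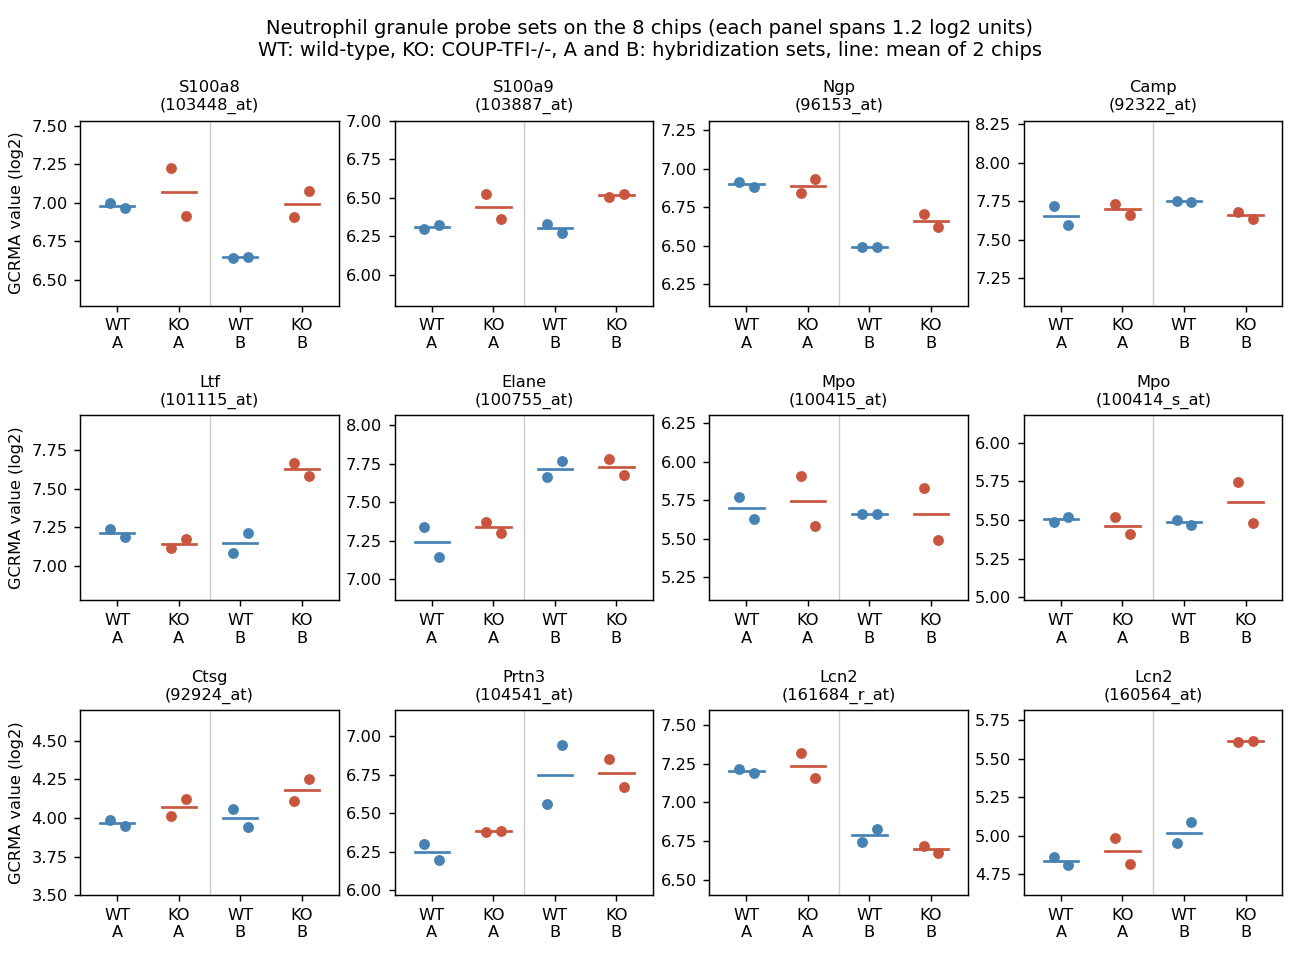
GCRMA log2 value (y axis, each panel spanning the same range) of the 12 granule probe sets on each chip by pool, wild-type in blue and COUP-TFI-/- in red, with a line at the mean of the duplicate chips. Ltf and Lcn2 160564_at stand highest in COUP-TFI-/- pool B, at 7.59 to 7.67 and 5.61 to 5.62, and Elane and Prtn3 are higher in both pools of set B.

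Between the genotypes, 0 of the 12 granule probe sets passed (limma adjusted p under 0.05), against 13 of 12422 or 0.105% of all probe sets. At an unadjusted p under 0.05 there were 2, S100a8 and Lcn2 160564_at, against 4.58% of all. With dChip 0 of 12 passed, against 0.00805% of all, and 1 had an unadjusted p under 0.05, against 2.13% of all. The value was higher in COUP-TFI-/- for 10 of the 12, with a median difference of 0.08 and a range of -0.03 to 0.33, whereas over all probe sets 50.3% were higher and the median was 0.00. Without COUP-TFI-/- chip B1 the median of the granule probe sets was 0.05, and without B2 it was 0.11. The sign was positive for 9 of 12 in set A (median 0.06) and for 10 of 12 in set B (median 0.15), against 53.1% and 49.7% of all. By dChip it was positive for 9 of 12 over both sets, against 46.3% of all. Within the sets it was positive by dChip for 5 of 12 in A (median -0.02) and 9 of 12 in B (median 0.14), against 51.3% and 47.1% of all. The excess of positive differences was thus seen in set B by both methods and in set A by GCRMA only. The 12 probe sets share chips and pools and are not replicates, so no test is given for these counts.

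**Figure D3:**
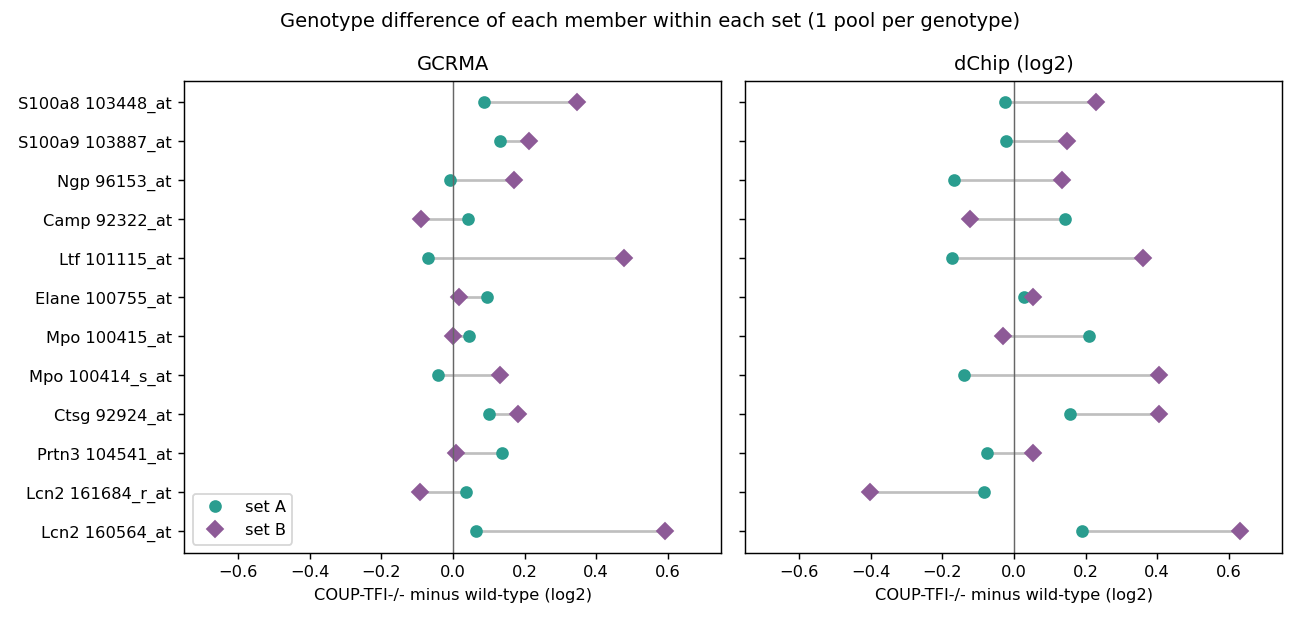
COUP-TFI-/- minus wild-type (x axis, log2) of each granule probe set within set A (circles) and set B (diamonds), by GCRMA on the left and dChip on the right, each point resting on 1 pool per genotype. The set B points of Lcn2 160564_at reach 0.59 and 0.63 and those of Ltf 0.48 and 0.36, while their set A points lie closer to 0.

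The interaction of genotype and set passed for 0 of the 12, against 0.958% of all probe sets (limma on 8 chips). At an unadjusted p under 0.05 there were 2, Ltf and Lcn2 160564_at, against 16.4% of all. Both of these are values of COUP-TFI-/- pool B above every other pool, and they came from a single pool of animals.

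Between the sets, 5 of the 12 passed (41.7%), against 25.8% of all probe sets (limma adjusted p under 0.05). Ngp and Lcn2 161684_r_at were higher in A, and Elane, Prtn3 and Lcn2 160564_at were higher in B. All 5 had the same sign in wild-type and in COUP-TFI-/-, in the same values that gave the calls. For Lcn2 160564_at the means of pools A and B were 4.84 and 5.02 in wild-type and 4.90 and 5.61 in COUP-TFI-/-. Most of that difference thus came from COUP-TFI-/- pool B. The chips of the sets did not overlap for 4 of the 12, against 37.1% of all. Granule genes therefore had no common direction between the sets, and their median set difference was -0.05. With dChip 0 of 12 passed, against 11.7% of all, and 5 had an unadjusted p under 0.05, against 33% of all. The sign of the set difference was the same by both methods for 10 of the 12, and S100a9 and Prtn3 were the exceptions.

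**Figure D4:**
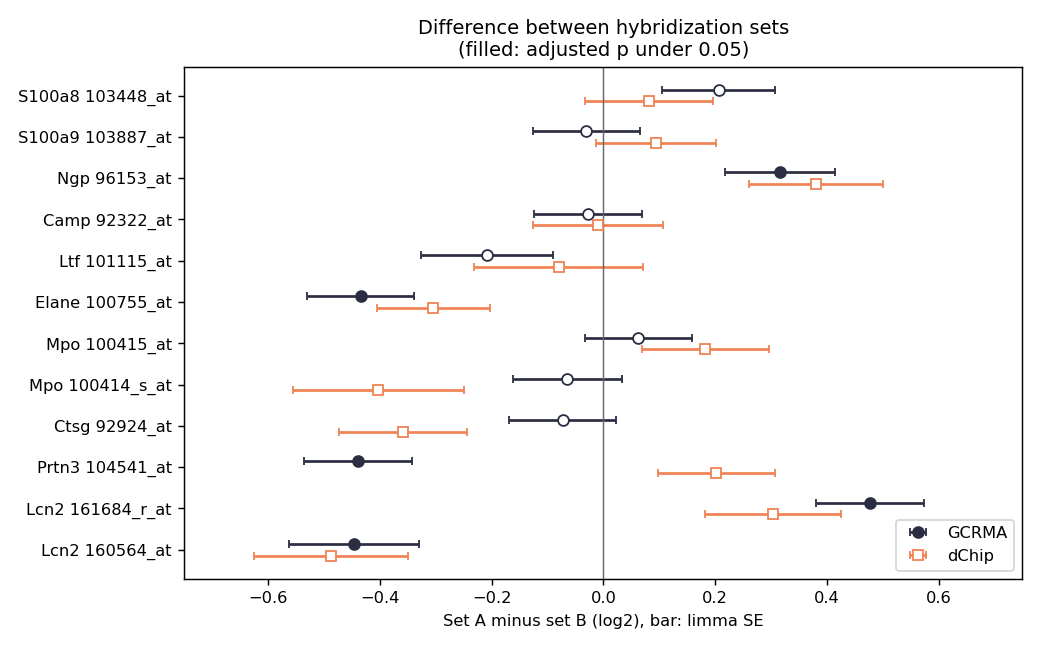
Set A minus set B (x axis, log2) of each granule probe set by GCRMA (circles) and dChip (squares), with the limma SE as bars and filled symbols where the adjusted p was under 0.05. By GCRMA 5 probe sets passed, 3 to the left and 2 to the right of 0, by dChip none did, and Prtn3 lies on opposite sides at -0.44 and 0.20.

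The likeness of 2 genes was measured as the mean absolute difference between their chip values, each centred on its own mean, over the 8 chips, with 1 probe set per gene. Of the 45 pairs of granule genes, Elane and Prtn3 were the closest at 0.06, followed by S100a9 and Ctsg at 0.07, and Prtn3 and Lcn2 161684_r_at were the farthest apart at 0.46. A pair that barely varies is close by this measure whatever its pattern. These distances are from GCRMA values only, and by dChip Elane and Prtn3 had set differences of opposite sign, -0.30 and 0.20. For the granule genes above the chip median, the nearest probe sets of other genes were Htr2c and Slc7a2 for Camp, at 0.02 each, and Mst1 and Csk for Elane, at 0.03 and 0.04. The median distance over all candidates was 0.12 for Camp and 0.22 for Elane.

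Of 80 related genes in 5 lists, 61 had a probe set. Between the genotypes 0 of 61 passed in the limma test, against 0.105% of all probe sets, and 5 had an unadjusted p under 0.05, against 4.58% of all. Of the 61, 42 were higher in COUP-TFI-/- (median 0.04), against 50.3% of all, and by dChip 32 were (median 0.01). Between the sets 5 passed, against 25.8% of all probe sets. The lists are given in turn, from other cargo to the factors that control it.

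Of the 16 other granule and effector genes, 12 were higher in COUP-TFI-/- (median 0.05). Pglyrp1, a peptidoglycan-binding protein of the granules, was the only one to pass between the sets, at -0.69 (SE 0.12, limma adjusted p = 0.000569). Within A its genotypes differed by -0.14 and within B by 0.39. Lrg1, a granule glycoprotein, and Chil1, a chitinase-like protein, had the largest genotype differences, 0.28 (unadjusted p = 0.0195) and 0.18. In set B alone they were 0.45 and 0.39. By dChip Lrg1 was at 0.03 and Chil1 at 0.31, and the set difference of Pglyrp1 was -0.19.

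Of the 7 genes that process or inhibit the proteases, 2 were higher in COUP-TFI-/-, and 3 passed between the sets. Ctsc, the dipeptidyl peptidase that activates Elane, Prtn3 and Ctsg, was higher in A by 0.68 with the probe set used here (SE 0.10, limma adjusted p = 0.000229). The paper's own table holds another Ctsc probe set, for which neither normalization gave a significant time-point effect. No direction is therefore given for Ctsc as a gene. Srgn, the proteoglycan that packs granule proteins, was higher in A by 0.36 (limma adjusted p = 0.0274). The serpin Serpina3n was higher in B, at -0.79 (limma adjusted p = 0.000104). With that one probe set, Ctsc and its substrates Elane and Prtn3 had set differences of opposite sign by GCRMA. By dChip Ctsc (0.54) still differed in sign from Elane but not from Prtn3. Between the genotypes Serpina3n was at 0.35 (unadjusted p = 0.0056, limma adjusted p = 0.661), from 0.14 within A and 0.57 within B, and Ctsc was at -0.19.

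Among 18 receptors and adhesion molecules 16 were higher in COUP-TFI-/- by GCRMA (median 0.04) and 9 by dChip (median 0.00). Clec4d was at 0.19 and Il1r2, the decoy receptor for interleukin 1, at 0.12. The only lower ones by GCRMA were Csf3r at -0.02 and Ly6g at -0.05, each smaller than its SE of 0.10. By dChip they were at -0.05 and -0.44, for Ly6g from low mean intensities of 55.1 in wild-type and 40.8 in COUP-TFI-/-. Other neutrophil genes of the list, Cxcr2, Itgam and Itgb2, were at 0.07, 0.03 and 0.06, and by dChip at -0.06, 0.02 and -0.01. Ager, which binds S100 proteins, was higher in B, at -0.29 (limma adjusted p = 0.0388). Of 9 ligands, 4 were higher in COUP-TFI-/- (median 0.00) and none passed between the sets. The neutrophil chemoattractants Cxcl1 and Cxcl5 were at -0.29 (unadjusted p = 0.0207) and -0.16.

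Of 11 transcription factors 8 were higher in COUP-TFI-/- (median 0.06). Cebpd, a C/EBP factor of the acute phase and of myeloid maturation, had the largest difference of all 61 genes, at 0.67 (SE 0.12), just short of the threshold (limma adjusted p = 0.0552). It was 0.37 within A and 0.97 within B, and 0.78 by dChip. Cebpb was at 0.21 (unadjusted p = 0.0426), with 0.20 within A and 0.22 within B. Spi1, which encodes PU.1, was at -0.01, and Gfi1 was at 0.06. Klf5 was the factor whose interaction of genotype and set passed (limma adjusted p = 0.0461 on 8 chips), with -0.23 within A and 0.30 within B.

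**Figure D5:**
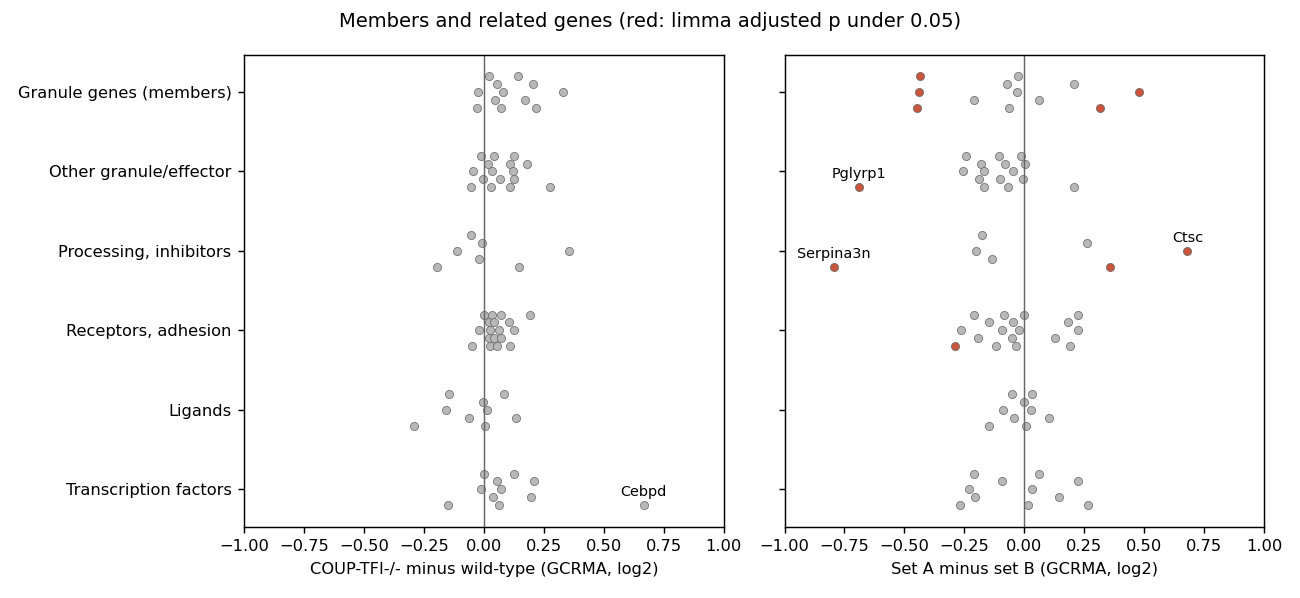
GCRMA differences of the 12 granule probe sets and of 61 related genes in 5 lists, COUP-TFI-/- minus wild-type on the left and set A minus set B on the right (x axes, log2), with genes of adjusted p under 0.05 in red. None is red for genotype, where Cebpd stands apart at 0.67, and 5 granule probe sets and 5 related genes are red for set.

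Markers of other cells were read beside these values. Of 8 macrophage markers, all 8 were higher in COUP-TFI-/- (median 0.15), 0 passed and 3 had an unadjusted p under 0.05, the complement genes C1qa, C1qb and C1qc at 0.26, 0.31 and 0.29. By dChip Csf1r had the other sign. Their summed dChip intensity was 5187 and 5143 in the wild-type pools and 5551 and 5913 in the COUP-TFI-/- pools, highest in COUP-TFI-/- pool B. In the order wild-type A and B, COUP-TFI-/- A and B, the mean GCRMA value was 8.24, 8.10, 8.33 and 8.35 over the macrophage markers and 6.54, 6.53, 6.60 and 6.65 over the 10 granule genes. By that measure both were lowest in wild-type pool B and highest in COUP-TFI-/- pool B. The summed dChip intensity of the granule genes was 2728, 2595, 2729 and 2650, again lowest in wild-type pool B but not highest in COUP-TFI-/- pool B.

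Bone and osteoclast markers were higher in COUP-TFI-/- for 5 of 5 over both sets, with a median of 0.16 by GCRMA and 0.17 by dChip, and 0 passed. By GCRMA their median was 0.02 within A and 0.23 within B. Acp5 changed sign, from -0.15 within A to 0.50 within B. Its interaction of genotype and set passed (limma adjusted p = 0.0272 on 8 chips), against 0.958% of all probe sets. The summed dChip intensity of the bone and osteoclast markers was 11382 and 10370 in the wild-type pools and 12973 and 11702 in the COUP-TFI-/- pools. Most of it came from Col1a1, which averaged 6908 in wild-type. Inner ear markers ran the other way, with 2 of 11 higher in COUP-TFI-/- (median -0.13, and -0.10 by dChip) and 0 passed. Tectb at -0.48, Sox2 at -0.36 and Gjb2 at -0.29 had an unadjusted p under 0.05. The part of any of these cell markers in the genotype differences of the granule genes was not tested. In bulk RNA, fewer cells of a type and less RNA per cell cannot be told apart.

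Between the sets, all 11 inner ear markers were higher in A, against 46.8% of all probe sets. Of these markers 7 passed, led by Sox2 at 1.15 and Coch at 0.86, against 25.8% of all probe sets. By dChip all inner ear markers but Myo6 kept the sign. Their summed dChip intensity was 12767 and 11665 in the pools of A and 10247 and 9561 in those of B. Of 12 markers of epithelium of any kind, 5 passed as higher in B, Krt5, Krt8, Krt13, Krt14 and Krt15, and 1, Epcam, as higher in A. By dChip Krt5 and Krt14 had the other sign. Among 8 markers of mast cells and eosinophils, whose granules also hold serine proteases, Cma1 (-0.77), Cpa3 (-0.30) and Prg2 (-0.42) were higher in B and Kit (0.45) in A, with the other sign for Prg2 by dChip. Of 6 erythroid markers, Hba-a1 (0.34) and Alas2 (0.53) were called as higher in A and Epor (-0.34) in B, with a list median of 0.01. The summed dChip intensity was 21398 and 21166 in the pools of A and 17445 and 17840 in those of B. Most of it came from Hba-a1, which averaged 16872 in wild-type, so it does not describe the 6 markers alike. The inner ear markers thus shared a direction between the sets by GCRMA. The called markers of mast cells and eosinophils and of erythroid cells went both ways, and of those of epithelium only Epcam was higher in A. Of 8 B cell markers 2 passed, Vpreb3 (-0.37) and Cd79a (-0.48). Of 6 T cell markers 2 passed, Cd3d (-0.54) and Cd3g (-0.33), against 25.8% of all probe sets. These were higher in B, as were all but 1 marker of each list. The list medians were -0.17 and -0.16, and by dChip -0.04 and -0.15. Elane and Prtn3 were called as higher in B, Ngp in A, and the Lcn2 pair in opposite directions. The part of these markers in the set differences of the granule genes was not tested.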

How the data were processed

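RNA of wild-type and COUP-TFI-/- newborn inner ears had been hybridized to 8 chips, and each chip was deposited with 2 normalizations. The authors made the log2 values with GCRMA and the linear expression intensity values with dChip; software versions are not given in the sources used here. The letter of the replicate label was read as the hybridization set. No counts exist for arrays, so the number of pools limits the precision. Of 12488 probe sets, 66 controls were left out. A probe set was named only from the platform annotation, in which 10833 had 1 symbol, 396 several and 1193 none; 10817 matched RefSeq by gene identifier. For the log2 of dChip, 89 values below 1 were raised to 1, and 12421 probe sets were tested.

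Means of duplicate chips were fitted with limma 3.58.1 in R 4.3.3, with genotype and set as terms and Benjamini-Hochberg adjustment over all probe sets, 2-sided. Residual degrees of freedom were 1, and the prior added 14.3, so an SE rests mostly on the variance of all probe sets. Nothing says that a pool's ears came from separate litters, so p-values measure the spread between these pools. Interactions were fitted on 8 chips and rest on duplicates. The set pairs the pools by the study's methods. Across probe sets the A minus B difference of wild-type correlated with that of COUP-TFI-/- with r = 0.752 (GCRMA) and 0.688 (dChip). The genotype difference within set A correlated with that within set B with r = 0.002, so over the chip genotype differences did not recur between the sets. The script was tested on simulated data.

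Text names all probe sets of the granule genes, Nr2f1, up to 4 called genes or else the 2 largest differences of each related list, the 2 nearest genes of members above the chip median, and markers that moved with a result. Spi1, Gfi1, Klf5, Csf3r, Ly6g, Cxcr2, Itgam, Itgb2, Acp5 and Col1a1 were named after their values were seen. Related lists use the probe set with the highest mean. Members and lists were chosen with earlier results of these data known. Alternatives were dChip with floors of 1 and 16, quantile normalization, a filter at the median level, a variance trend, 8 chips as samples, the methods' 2-way analysis of variance, other blocks, and leaving out each chip.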

Additional observations from a re-analysis of the deposited data

Results flagged for a closer look

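Among the 4 COUP-TFI-/- chips, S100a9 had 1 chip, A2 at 6.36, well below the others at 6.50 to 6.53. The gap was 0.853 of the whole range, above Dixon's 95% critical value, which chance passes in about 1 of 20 groups. The 4 chips are duplicates of 2 pools, so they are not the independent values that this rule assumes. Without that chip the genotype difference was 0.21 in place of 0.17.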

How the results depend on the processing

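The count of 0 granule probe sets called between the genotypes held under every alternative but 1, the fit of 8 chips as samples, which called 1 (Lcn2 160564_at). That fit called 3 related genes by genotype, and the median filter and the variance trend 1 each. The replicate block by whole chip label and the fit with no replicate block kept the same differences (median 0.08 for the granule genes) and called 0. Between the sets, the granule count went from 5 to 0 with dChip at either floor, to 1 with the median filter, which keeps 3 of the 12, and to 3 with quantile normalization, where Ngp and Lcn2 160564_at lost their calls (limma adjusted p = 0.0534 and 0.0528, within 0.000768 to 0.137 and 0.000147 to 0.134 over all settings). The 2-way analysis of variance lost Prtn3 (adjusted p = 0.0511, within 0.00108 to 0.237) and gained Ltf (0.0338, within 0.0124 to 0.767), which left 5, and the 8-chip fit added Ltf and S100a8, which gave 7. Related genes called by set, 5 in the reported test, numbered 14 with the analysis of variance, 23 with 8 chips, 2 and 0 with dChip at floors of 1 and 16, and 3 with quantile normalization. The cause of these shifts was not tested.

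With dChip at either floor the sign turned for the genotype difference of Camp (0.00936), Ngp (-0.0151) and Prtn3 (-0.00989) and for the set difference of Prtn3 (0.202) and S100a9 (0.0940). The median genotype difference of related genes was then 0.00741, and the set medians were 0.0360 for granule probe sets and 0.0192 for related genes. With the median filter those set medians were -0.208 and -0.180.

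Leaving out 1 chip at a time, the granule set count ran from 4 (without COUP-TFI-/- A1, COUP-TFI-/- B2 or wild-type B1, which loses Ngp) to 6 (without COUP-TFI-/- A2, which adds S100a8), the related genotype count from 0 to 1, the related set count from 3 to 9 the related genotype median from 0.0236 to 0.0553, the granule genotype median from 0.0451 (without COUP-TFI-/- B1) to 0.109 (without COUP-TFI-/- B2) and the granule set median from -0.0588 (without wild-type B2) to -0.0240 (without COUP-TFI-/- A2). Genotype differences crossed 0 for Camp (-0.0546 to 0.00681), Lcn2 161684_r_at (-0.0682 to 0.0130), Mpo 100414_s_at (-0.0215 to 0.110), Mpo 100415_at (-0.0635 to 0.108) and Prtn3 (-0.0220 to 0.168). Set differences crossed 0 for Camp (-0.0590 to 0.00239), Mpo 100414_s_at (-0.131 to 0.00107), Mpo 100415_at (-0.0232 to 0.148) and S100a9 (-0.0705 to 0.00861).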
